A study of Homo sapiens with 36 samples.

Results

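The 37 genes described here serve glycolysis and the hypoxia response: 4 glucose and lactate transporters, 18 glycolytic enzymes, 2 fructose-2,6-bisphosphate regulators, 4 subunits or regulators of hypoxia-inducible factor (HIF), and 9 other hypoxia targets. They were listed by symbol and matched by Entrez ID to the 21599 rows of the deposited expression table. All 37 matched, and all 37 passed the filter on low values that left 21232 genes. The cells were THP-1, a human monocytic leukaemia line, given 100 nM phorbol ester (PMA) for 72 h in every group so that they became macrophage-like. IRG1 knockout (KO) and wild-type (WT) cells each then received LPS at 200 ng/mL together with interferon-gamma at 200 ng/mL, here called stimulation, or vehicle. RNA was taken at 6, 12 and 24 h, so the 12 groups were stimulated KO, vehicle KO, stimulated WT and vehicle WT at each of 3 times, with n = 3 libraries in each and 36 in all. The IRG1 gene, now named ACOD1, encodes the mitochondrial enzyme that makes itaconate from cis-aconitate. The labels do not say how the knockout was made or whether it is 1 clone, nor that replicates are separate cultures, so the p-values here gauge just the spread among the libraries, which may be technical.

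Glycolysis splits glucose to pyruvate in the cytosol, and lactate dehydrogenase can then turn pyruvate into lactate, which leaves the cell through monocarboxylate transporters. HIF is a dimer whose alpha subunit, HIF1A or EPAS1, is marked for destruction by oxygen-dependent prolyl hydroxylases of the EGLN family. When this subunit is stable, HIF binds the core sequence ACGTG or GCGTG near many glycolytic genes. In macrophages given LPS, glycolysis is known to rise and HIF1A to be induced also in the presence of oxygen.

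The promoter windows of 4 members are printed because they hold the HIF core in its ACGTG form. LDHA, ANKRD37 and P4HA1 are members whose response to stimulation differed between the genotypes, and ENO2 is the member with the largest change between them. The windows run from 250 bases before to 50 bases after the gene start, come from RefSeq on build GRCh38.p14 and read 5′ to 3′ on the gene's strand. Capitals mark ACGTG or its reverse complement CACGT, and the 2 overlap in the palindrome CACGTG. The form GCGTG is not marked. The LDHA window is chr11:18394313-18394612 (+ strand), the ANKRD37 window chr4:185396591-185396890 (+ strand), the P4HA1 window chr10:73096817-73097116 (- strand) and the ENO2 window chr12:6914330-6914629 (+ strand).
LDHA: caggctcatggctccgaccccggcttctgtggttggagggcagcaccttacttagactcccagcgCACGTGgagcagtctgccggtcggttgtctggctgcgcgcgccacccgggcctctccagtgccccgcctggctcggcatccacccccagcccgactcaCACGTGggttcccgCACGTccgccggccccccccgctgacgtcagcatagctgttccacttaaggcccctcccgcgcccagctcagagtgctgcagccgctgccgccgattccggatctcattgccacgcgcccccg
ANKRD37: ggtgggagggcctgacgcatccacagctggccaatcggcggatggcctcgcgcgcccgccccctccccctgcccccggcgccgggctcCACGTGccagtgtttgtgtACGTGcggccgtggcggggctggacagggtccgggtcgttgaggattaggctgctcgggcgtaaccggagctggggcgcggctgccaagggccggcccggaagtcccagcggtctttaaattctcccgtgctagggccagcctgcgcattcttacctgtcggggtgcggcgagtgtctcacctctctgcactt
P4HA1: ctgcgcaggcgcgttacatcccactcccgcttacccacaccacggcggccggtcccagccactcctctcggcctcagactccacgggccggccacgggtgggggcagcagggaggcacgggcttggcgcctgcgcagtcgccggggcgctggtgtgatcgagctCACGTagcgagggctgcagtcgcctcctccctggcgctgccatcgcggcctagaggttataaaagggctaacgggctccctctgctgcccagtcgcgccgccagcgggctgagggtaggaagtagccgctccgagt
ENO2: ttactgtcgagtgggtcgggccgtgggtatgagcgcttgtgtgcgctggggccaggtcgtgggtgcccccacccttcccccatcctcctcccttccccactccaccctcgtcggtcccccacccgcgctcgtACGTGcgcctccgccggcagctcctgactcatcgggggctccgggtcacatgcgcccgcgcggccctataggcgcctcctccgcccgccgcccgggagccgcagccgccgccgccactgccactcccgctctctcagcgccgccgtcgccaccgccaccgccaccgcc
LDHA held 5 matches on either strand, ANKRD37 held 3, and P4HA1 and ENO2 held 1 each. Of the 37 members 32 had a promoter entry, and 12 of these 32 (37.5%) held ACGTG on either strand, against 25.3% of the 13957 promoters of genes in the expression table. With GCGTG counted as well, 23 of the 32 (71.9%) held a match, against 59.7% of the 13957 promoters. The member windows were also richer in G and C, with a median of 69.8% against 64% for the same promoters. Of the other members with a differing response, HK1 and PFKM held neither form in this window, and CA12 held 2 matches of GCGTG and none of ACGTG. A match is a stretch of letters, and binding was not measured.

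The deposited values are on a log2 scale, and the libraries share nearly 1 distribution, with medians of 5.47 to 5.48, so changes are relative to the other genes of a library. Sequencing depth is unknown, and levels are not compared between genes because the values are not stated to be per length. Changes below are log2 differences ± the standard error (SE) of the limma fit, with p-values adjusted by Benjamini-Hochberg over all 21232 genes, and called means an adjusted p under 0.05. ACOD1 itself read 7.98 to 10.22 in stimulated KO and 0.00 to 0.33 in vehicle KO libraries, against 9.20 to 12.76 in stimulated WT and 0.12 to 0.86 in vehicle WT libraries. The transcript was present in stimulated KO cells, with lower group means than in stimulated WT cells at all 3 times, and the lowest stimulated WT library lay inside the KO range. Of 12 monocyte and macrophage markers all matched, and none was at 0 in any library. Stimulated KO replicate 2 at 6 h and stimulated WT replicate 3 at 24 h stood apart from their groups, with a mean correlation of 0.839 and 0.870 with the other 2 libraries.

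With stimulation members were called in both directions, as were the genes of the whole table. In KO cells 14 of 37 members (37.8%) were called higher and 10 (27%) lower on the mean of the 3 times. Of all genes tested 24.9% were called higher and 34.1% lower there. In WT cells 9 members (24.3%) were called higher and 14 (37.8%) lower, near the 26.1% and 36.5% of all genes. The median change over the 37 members was 0.31 in KO and 0.03 in WT cells, where the median of all genes was -0.15 and -0.18. Both responses were shared by ENO2, PFKFB3, HIF1A, VEGFA, ADM and ANKRD37, called higher in both genotypes, and by SLC16A1, HK3, GPI, ALDOA, GAPDH, LDHB, PFKFB4, EPAS1 and EGLN1, called lower in both. CA12 was the 1 member called in opposite directions. Macrophage markers moved with stimulation too: 6 of 12 were called lower and 1 higher in KO cells, and 7 lower and 1 higher in WT cells, with medians of -0.63 and -1.19. Summed levels of markers here are the log2 of the sum of values taken off the log2 scale, so the highest markers dominate them. That of the macrophage markers ran from 12.11 to 12.94 in stimulated KO against 12.55 to 13.40 in vehicle KO libraries. In WT cells it ran from 13.26 to 14.13 in stimulated against 13.79 to 15.23 in vehicle libraries. Of 7 tested markers of other cell types, 2 were called higher and 1 lower in KO and 1 higher and 2 lower in WT cells. The part of these markers in the responses was not tested, and in bulk RNA fewer cells of a type and less RNA per cell cannot be told apart.

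**Figure D1:**
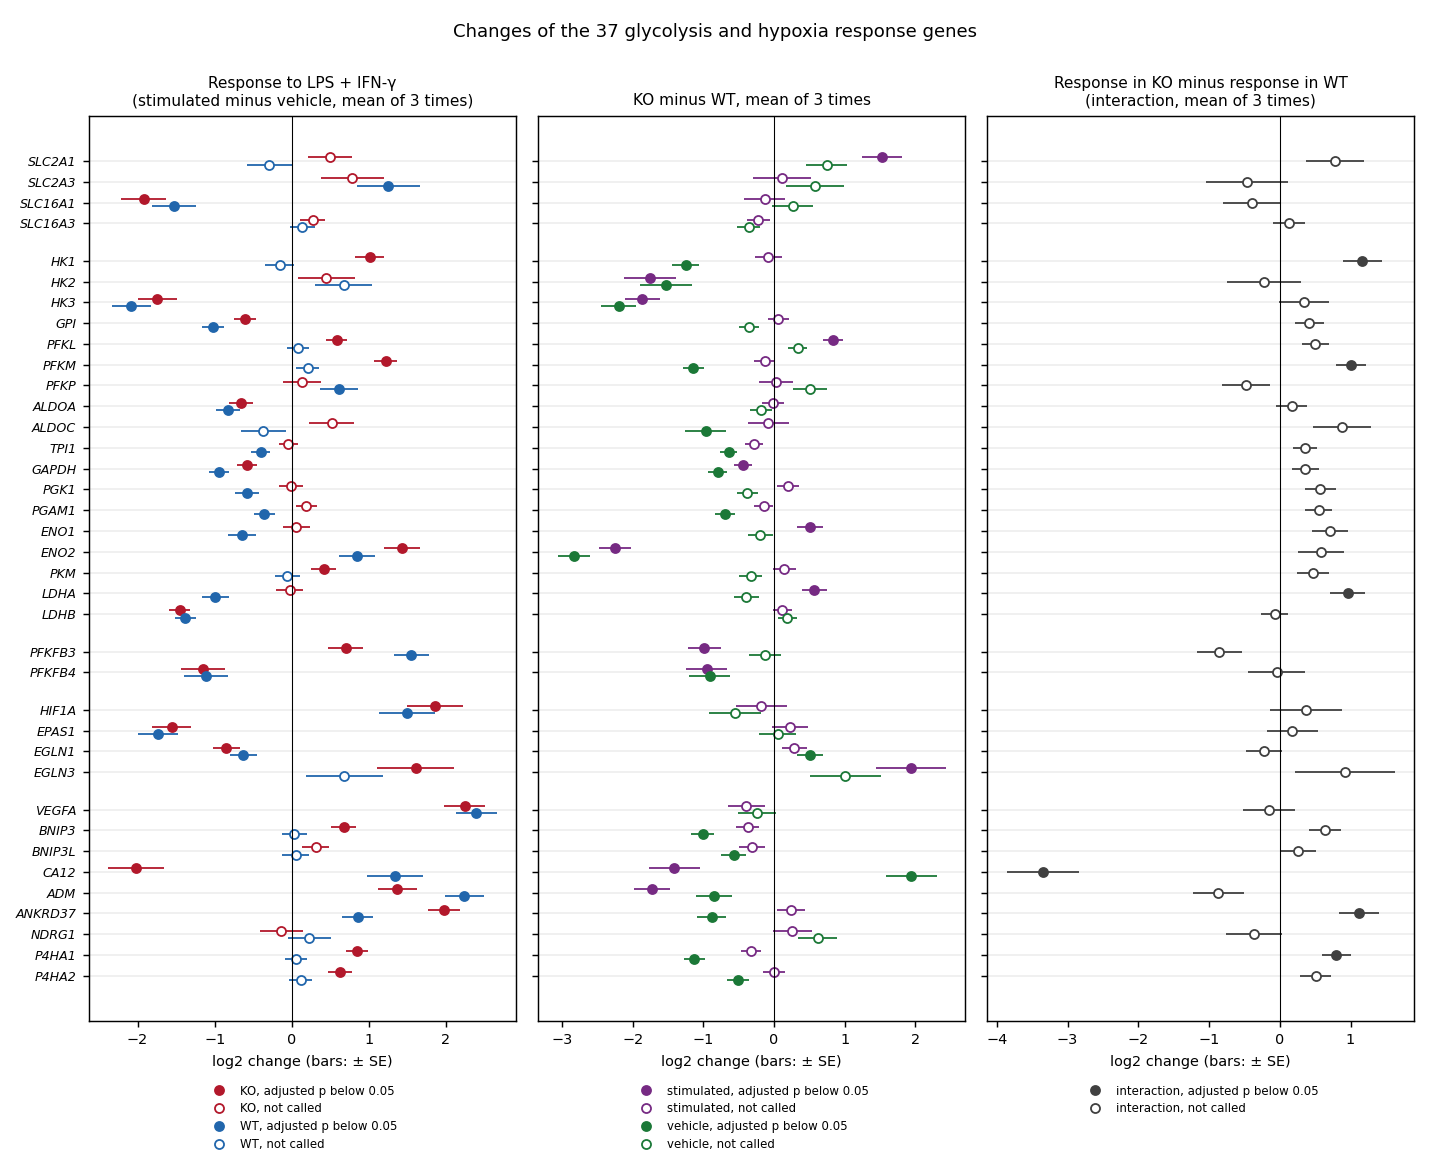
Log2 change of each of the 37 members, grouped by role, for the response to stimulation in KO and WT cells (left), for KO minus WT in stimulated and vehicle-treated cells (middle) and for the interaction (right), each on the mean of 3 times. Points are limma estimates with bars of ± SE, filled where the adjusted p is below 0.05; CA12 lies at -2.02 in KO and 1.34 in WT cells in the left panel.

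Among the transporters, SLC16A1 (MCT1), which carries lactate and pyruvate across the plasma membrane, fell with stimulation. SLC16A1 in stimulated KO cells was 7.99, 5.06 and 7.78 (6 h), 7.49, 7.07 and 7.57 (12 h), then 7.00, 7.22 and 6.79 (24 h). SLC16A1 in vehicle-treated KO cells was 9.23, 7.85 and 8.65 (6 h), 9.05, 9.95 and 8.91 (12 h), then 9.32, 9.45 and 8.88 (24 h). The stimulated KO libraries lay below the vehicle ones without overlap at 12 and 24 h and overlapped them at 6 h. SLC16A1 in stimulated WT cells was 8.09, 8.19 and 7.63 (6 h), 7.27, 6.99 and 7.04 (12 h), then 6.97, 6.99 and 6.01 (24 h). SLC16A1 in vehicle-treated WT cells was 8.20, 9.25 and 7.88 (6 h), 8.46, 9.28 and 8.57 (12 h), then 9.27, 9.44 and 8.56 (24 h). The WT libraries showed the same order, apart at 12 and 24 h and overlapping at 6 h. The mean change was -1.92 ± 0.29, adjusted p = 1.51e-06 in KO cells and -1.53 ± 0.29, adjusted p = 3.95e-05 in WT cells. SLC2A3 (GLUT3), a high-affinity glucose transporter, read 0.78 ± 0.41 in KO cells, not called, and was called higher, at 1.25 ± 0.41, adjusted p = 0.00914 in WT cells. In KO cells it was called without stimulated KO 6 h replicate 2 or 24 h replicate 3 (log2 changes of 1.00 to 1.01). SLC2A1 (GLUT1), the basal glucose transporter, was not called in either response, at 0.49 ± 0.29 in KO and -0.29 ± 0.29 in WT cells; in the KO response the fit of only the libraries compared and the fit with the replicate block called it. SLC16A3 (MCT4), the lactate exporter known as a HIF target, changed with time: its response at 6, 12 and 24 h was -0.84, 0.60 and 1.04 in KO cells and -1.25, 0.60 and 1.05 in WT cells. The 6 h and 24 h changes were called in both genotypes, except that the KO change at 6 h lost its call without stimulated KO replicate 3 (-0.63), without vehicle KO replicate 2 (-0.79) and in the fit of only the libraries compared (adjusted p = 0.0571). The WT change at 24 h was not called in the fit of only the libraries compared (adjusted p = 0.053). The 12 h change was called with the replicate block in both genotypes (adjusted p = 0.0182 in KO and 0.0168 in WT cells), in KO cells also in the fit of only the libraries compared (adjusted p = 0.0335), and in WT cells also without vehicle WT replicate 1 (0.80).

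The hexokinases, which trap glucose as glucose 6-phosphate, did not move together. HK2, the inducible isoform, was not called in either response by the fit to all libraries. HK2 in stimulated KO cells was 6.80, 3.47 and 6.42 (6 h), 6.62, 8.10 and 7.00 (12 h), then 7.15, 8.94 and 6.96 (24 h). HK2 in vehicle-treated KO cells was 5.42, 5.34 and 6.60 (6 h), 6.26, 7.01 and 7.23 (12 h), then 6.46, 6.42 and 6.69 (24 h). The KO libraries spread widely at 6 h with stimulation, where replicate 2 read far below the other 2. HK2 in stimulated WT cells was 8.49, 8.40 and 7.21 (6 h), 9.19, 8.57 and 8.70 (12 h), then 9.35, 9.42 and 7.93 (24 h). HK2 in vehicle-treated WT cells was 8.90, 8.06 and 7.64 (6 h), 8.75, 7.56 and 8.00 (12 h), then 8.00, 7.68 and 6.61 (24 h). The stimulated and vehicle WT libraries overlapped at every time. Over the 3 times the change averaged 0.45 ± 0.37, adjusted p = 0.309 in KO cells and 0.67 ± 0.37, adjusted p = 0.115 in WT cells. Without stimulated KO replicate 2 at 6 h the KO change was 0.79 with an adjusted p of 0.0286. The fit of only the libraries compared called the WT change (adjusted p = 0.048). Without the 2 libraries that stood apart HK2 was called in both responses, at 0.79 in KO and 0.84 in WT cells.

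HK3, an isoform found mainly in myeloid cells, fell after 6 h. HK3 in stimulated KO cells was 3.89, 4.31 and 3.62 (6 h), 1.98, 2.14 and 1.85 (12 h), then 1.46, 2.38 and 1.70 (24 h). HK3 in vehicle-treated KO cells was 3.95, 4.80 and 3.75 (6 h), 3.69, 4.81 and 3.42 (12 h), then 4.46, 5.60 and 4.52 (24 h). The stimulated KO libraries lay below the vehicle ones at 12 and 24 h and overlapped them at 6 h. HK3 in stimulated WT cells was 5.97, 5.18 and 5.79 (6 h), 4.42, 3.55 and 3.81 (12 h), then 4.80, 3.45 and 3.12 (24 h). HK3 in vehicle-treated WT cells was 5.90, 5.39 and 5.44 (6 h), 6.93, 6.47 and 6.67 (12 h), then 7.99, 6.58 and 7.45 (24 h). WT cells showed the same gap at 12 and 24 h. The average response was -1.74 ± 0.25, adjusted p = 8.6e-07 in KO and -2.08 ± 0.25, adjusted p = 3.93e-08 in WT cells, and the change at 24 h was 8.1-fold down in KO and 11.7-fold down in WT cells. Several values in stimulated KO cells lay below log2(10), 3.32, the floor of the filter, and folds of such low values depend on the offset behind the logarithm, which is not given.

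Of the steps between hexokinase and pyruvate, GPI, which isomerizes glucose 6-phosphate, fell in both genotypes, at -0.61 ± 0.15 in KO and -1.02 ± 0.15 in WT cells. ALDOA, the main aldolase, fell by 0.67 in KO and by 0.83 in WT cells on the log2 scale, and GAPDH, which oxidizes glyceraldehyde 3-phosphate, fell by 0.58 and by 0.94. Of the 3 subunits of phosphofructokinase, the committed step, PFKL rose in KO cells (0.58 ± 0.14, adjusted p = 0.000621) and read 0.08 ± 0.14 in WT cells. PFKP was called higher in WT cells (0.61 ± 0.24, adjusted p = 0.0303) and lost the call without stimulated WT 12 h replicate 1 or 24 h replicate 1 or vehicle WT 6 h replicate 1 or 3 or 12 h replicate 1 or 3 or 24 h replicate 1 or 3 (log2 changes of 0.50 to 0.58). The next 4 enzymes were not called in KO cells and were called lower in WT cells. TPI1, which interconverts the triose phosphates, read -0.05 ± 0.12 in KO and -0.40 ± 0.12 in WT cells. PGK1, the first ATP-forming step, read -0.01 ± 0.15 in KO and -0.58 ± 0.15 in WT cells. PGAM1, phosphoglycerate mutase, read 0.19 ± 0.14 in KO and -0.36 ± 0.14 in WT cells. ENO1, the main enolase, read 0.06 ± 0.18 in KO and -0.65 ± 0.18 in WT cells. The difference between the 2 responses was not called for any of these 4 (interactions of 0.36 to 0.70, adjusted p from 0.0946 to 0.246), whereas the fit with the replicate block called it for ENO1 (adjusted p = 0.0075), PGAM1 (0.034) and PGK1 (0.0476). For PGK1 it was also called without stimulated KO replicate 2 at 24 h (adjusted p = 0.0433). The PGAM1 call in WT cells was lost without stimulated WT 6 h replicate 3 or 24 h replicate 3 or vehicle WT 6 h replicate 2 or 12 h replicate 1 (log2 changes of -0.33 to -0.28). PKM, the last step to pyruvate, was called higher in KO cells (0.41 ± 0.16, adjusted p = 0.0306), a call lost without stimulated KO 6 h replicate 2 or 24 h replicate 1 or vehicle KO 6 h replicate 3 or 12 h replicate 3 or 24 h replicate 3 (log2 changes of 0.33 to 0.39). ALDOC was not called (0.52 ± 0.29 in KO, -0.37 ± 0.29 in WT cells), but was called in KO cells without stimulated KO 6 h replicate 1 or vehicle KO 6 h replicate 2 (log2 changes of 0.68 to 0.72).

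ENO2, the enolase isoform best known from neurons and a hypoxia target, rose in both genotypes on the mean of 3 times, from different levels. ENO2 in stimulated KO cells was 2.79, 2.25 and 2.30 (6 h), 3.58, 3.01 and 2.73 (12 h), then 3.64, 3.91 and 3.12 (24 h). ENO2 in vehicle-treated KO cells was 1.15, 1.54 and 2.44 (6 h), 1.37, 1.98 and 1.91 (12 h), then 1.35, 1.22 and 1.54 (24 h). KO values ran from 1.15 to 3.91, many of them under the filter's floor, and the stimulated libraries were above the vehicle ones at 12 and 24 h but overlapped them at 6 h. ENO2 in stimulated WT cells was 4.39, 3.93 and 3.97 (6 h), 5.61, 5.90 and 5.97 (12 h), then 5.97, 5.30 and 6.59 (24 h). ENO2 in vehicle-treated WT cells was 5.03, 5.37 and 4.07 (6 h), 4.88, 4.68 and 3.92 (12 h), then 3.86, 4.60 and 3.62 (24 h). WT libraries were likewise apart at 12 and 24 h and overlapped at 6 h. The WT change at 6 h ran the other way, at -0.73 ± 0.40, adjusted p = 0.157, and was called lower without vehicle WT replicate 3 (-1.10, adjusted p = 0.0464). The mean change was 1.43 ± 0.23, adjusted p = 4.24e-06 in KO and 0.85 ± 0.23, adjusted p = 0.00206 in WT cells.

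LDHB, the lactate dehydrogenase subunit that favours lactate oxidation, fell at every time. LDHB in stimulated KO cells was 9.61, 8.69 and 9.47 (6 h), 9.30, 9.35 and 9.53 (12 h), then 9.61, 9.02 and 9.57 (24 h). LDHB in vehicle-treated KO cells was 10.75, 10.59 and 10.73 (6 h), 10.69, 10.80 and 10.97 (12 h), then 10.72, 11.03 and 10.95 (24 h). No stimulated KO library reached the lowest vehicle one. LDHB in stimulated WT cells was 9.65, 9.82 and 10.02 (6 h), 8.82, 9.54 and 9.12 (12 h), then 8.77, 8.58 and 8.80 (24 h). LDHB in vehicle-treated WT cells was 10.30, 10.88 and 10.65 (6 h), 10.22, 10.95 and 10.40 (12 h), then 10.35, 11.03 and 10.75 (24 h). The WT libraries did not overlap either, and the stimulated ones were lowest at 24 h. Over the 3 times the change averaged -1.45 ± 0.13, adjusted p = 2.38e-10 in KO and -1.38 ± 0.13, adjusted p = 6.89e-10 in WT cells, 2.74-fold and 2.61-fold down.

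PFKFB3 and PFKFB4 make and break fructose 2,6-bisphosphate, the activator of phosphofructokinase, and they moved apart. PFKFB3, the isoform with the stronger kinase activity, rose by 0.70 ± 0.23, adjusted p = 0.00971 in KO cells and by 1.55 ± 0.23, adjusted p = 1.04e-06 in WT cells. PFKFB4 fell in both, with changes of -1.15 ± 0.28, adjusted p = 0.000978 in KO and -1.11 ± 0.28, adjusted p = 0.00132 in WT cells.

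The 2 HIF alpha subunits moved in opposite directions. HIF1A in stimulated KO cells was 10.55, 7.12 and 10.31 (6 h), 9.47, 9.94 and 9.58 (12 h), then 9.54, 10.32 and 8.95 (24 h). HIF1A in vehicle-treated KO cells was 8.16, 6.61 and 8.17 (6 h), 7.67, 7.68 and 7.80 (12 h), then 7.71, 7.69 and 7.53 (24 h). Stimulated KO libraries were above vehicle ones at 12 and 24 h, and at 6 h replicate 2 fell among the vehicle values. HIF1A in stimulated WT cells was 11.05, 10.10 and 9.76 (6 h), 9.73, 10.09 and 9.47 (12 h), then 9.27, 10.31 and 7.64 (24 h). HIF1A in vehicle-treated WT cells was 9.04, 8.00 and 8.73 (6 h), 8.65, 8.16 and 7.88 (12 h), then 8.42, 7.92 and 7.16 (24 h). Stimulated WT libraries were above vehicle ones at 6 and 12 h and overlapped them at 24 h. HIF1A rose by 1.86 ± 0.36, adjusted p = 6.67e-05 in KO cells and by 1.49 ± 0.36, adjusted p = 0.000768 in WT cells. The table also holds a row for its antisense transcript HIF1A-AS2, and whether counting used the strand is not given, so reads of the 2 cannot be told apart.

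EPAS1, which encodes HIF-2 alpha, fell. EPAS1 in stimulated KO cells was 6.29, 4.84 and 6.75 (6 h), 6.13, 5.33 and 6.51 (12 h), then 5.95, 6.21 and 6.38 (24 h). EPAS1 in vehicle-treated KO cells was 7.17, 6.51 and 7.20 (6 h), 7.91, 7.68 and 7.96 (12 h), then 8.17, 7.91 and 7.91 (24 h). The KO libraries were apart at 12 and 24 h and overlapped at 6 h. EPAS1 in stimulated WT cells was 7.41, 7.17 and 6.58 (6 h), 5.74, 4.75 and 5.87 (12 h), then 5.52, 5.45 and 3.85 (24 h). EPAS1 in vehicle-treated WT cells was 8.17, 7.24 and 7.61 (6 h), 8.01, 6.89 and 7.81 (12 h), then 8.02, 7.17 and 7.06 (24 h). The WT libraries gave the same order, and stimulated WT replicate 3 at 24 h gave the lowest of all EPAS1 values. The average response was -1.56 ± 0.26, adjusted p = 6.48e-06 in KO and -1.74 ± 0.26, adjusted p = 1.16e-06 in WT cells. The prolyl hydroxylase EGLN1 also fell, at -0.85 ± 0.18, adjusted p = 0.00016 in KO and -0.63 ± 0.18, adjusted p = 0.00312 in WT cells.

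EGLN3, the hydroxylase that is itself a HIF target, was called higher in KO cells only. EGLN3 in stimulated KO cells was 6.75, 4.45 and 5.90 (6 h), 4.91, 4.97 and 3.95 (12 h), then 3.44, 3.02 and 3.20 (24 h). EGLN3 in vehicle-treated KO cells was 4.26, 5.00 and 3.24 (6 h), 2.89, 4.24 and 0.51 (12 h), then 1.66, 3.94 and 0.42 (24 h). The KO libraries overlapped at every time and were highest at 6 h. EGLN3 in stimulated WT cells was 2.11, 3.84 and 2.22 (6 h), 2.73, 3.35 and 3.84 (12 h), then 1.67, 1.67 and 1.74 (24 h). EGLN3 in vehicle-treated WT cells was 1.96, 2.61 and 0.73 (6 h), 3.02, 2.77 and 0.46 (12 h), then 1.37, 3.17 and 0.96 (24 h). The WT libraries also overlapped at every time, and most values lay under log2(10). The mean change was 1.60 ± 0.50, adjusted p = 0.00683 in KO and 0.68 ± 0.50, adjusted p = 0.238 in WT cells, and the difference between these responses was not called (0.92 ± 0.70, adjusted p = 0.52).

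VEGFA, the angiogenic growth factor, had the largest rise of the 37 members in KO cells and in WT cells. VEGFA in stimulated KO cells was 7.80, 7.04 and 8.61 (6 h), 7.91, 8.04 and 8.18 (12 h), then 7.51, 7.82 and 7.47 (24 h). VEGFA in vehicle-treated KO cells was 5.30, 5.43 and 6.02 (6 h), 5.73, 5.40 and 5.63 (12 h), then 6.43, 4.40 and 5.89 (24 h). All 9 stimulated KO libraries exceeded all 9 vehicle KO libraries. VEGFA in stimulated WT cells was 8.77, 7.36 and 9.17 (6 h), 8.25, 7.23 and 8.63 (12 h), then 8.19, 7.74 and 8.61 (24 h). VEGFA in vehicle-treated WT cells was 6.37, 5.71 and 7.05 (6 h), 5.95, 5.54 and 6.12 (12 h), then 5.25, 5.04 and 5.37 (24 h). The same held for the 9 WT libraries of each treatment. Over the 3 times the change averaged 2.24 ± 0.26, adjusted p = 2.44e-08 in KO and 2.40 ± 0.26, adjusted p = 6.82e-09 in WT cells, 4.72-fold and 5.26-fold up.

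ADM, the vasodilator peptide adrenomedullin, rose as well. ADM in stimulated KO cells was 7.51, 6.86 and 6.59 (6 h), 6.47, 6.40 and 6.43 (12 h), then 6.78, 7.06 and 6.63 (24 h). ADM in vehicle-treated KO cells was 5.45, 6.82 and 6.66 (6 h), 4.89, 5.52 and 5.25 (12 h), then 4.41, 5.12 and 4.32 (24 h). Stimulated KO libraries were above vehicle ones at 12 and 24 h, while at 6 h they overlapped. ADM in stimulated WT cells was 9.57, 7.45 and 8.44 (6 h), 8.90, 7.28 and 8.73 (12 h), then 9.43, 8.09 and 8.38 (24 h). ADM in vehicle-treated WT cells was 6.83, 6.95 and 6.25 (6 h), 6.20, 6.25 and 5.95 (12 h), then 6.13, 5.43 and 6.15 (24 h). In WT cells all 9 stimulated libraries lay above the 9 vehicle libraries. The average response was 1.37 ± 0.26, adjusted p = 3.91e-05 in KO and 2.24 ± 0.26, adjusted p = 1.41e-08 in WT cells, and the difference between the responses was not called (-0.87 ± 0.36, adjusted p = 0.162).

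Of the remaining hypoxia targets, BNIP3, a mitophagy receptor, rose in KO cells (0.67 ± 0.16, adjusted p = 0.000773) and had a mean of 0.03 ± 0.16 in WT cells. That WT mean joins unlike times: BNIP3 read 0.18 at 6 h, was called higher at 12 h (0.72 ± 0.28, adjusted p = 0.0424) and was called lower at 24 h (-0.81 ± 0.28, adjusted p = 0.0199). Both of these WT calls were lost when some single libraries were left out, with changes of 0.57 to 0.79 at 12 h and -0.79 to -0.49 at 24 h. The 24 h call was also lost in the fit of only the libraries compared (adjusted p = 0.107). In KO cells the changes at 6, 12 and 24 h were 1.22, 0.87 and -0.06, the last not called. The KO call at 12 h was lost without stimulated KO replicate 2 (0.80) or vehicle KO replicate 1 (0.66). The KO call at 6 h was lost in the fit of only the libraries compared (adjusted p = 0.0553). P4HA2, a collagen prolyl hydroxylase subunit, rose in KO cells (0.62 ± 0.15, adjusted p = 0.000987) and read 0.11 ± 0.15 in WT cells. BNIP3L, the related mitophagy receptor, was not called (0.31 ± 0.18 in KO, 0.05 ± 0.18 in WT cells), except in KO cells without stimulated KO 6 h replicate 2 (log2 change of 0.44). NDRG1, a stress-responsive gene, was not called in either response (-0.14 ± 0.28 and 0.23 ± 0.28).

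**Figure D2:**
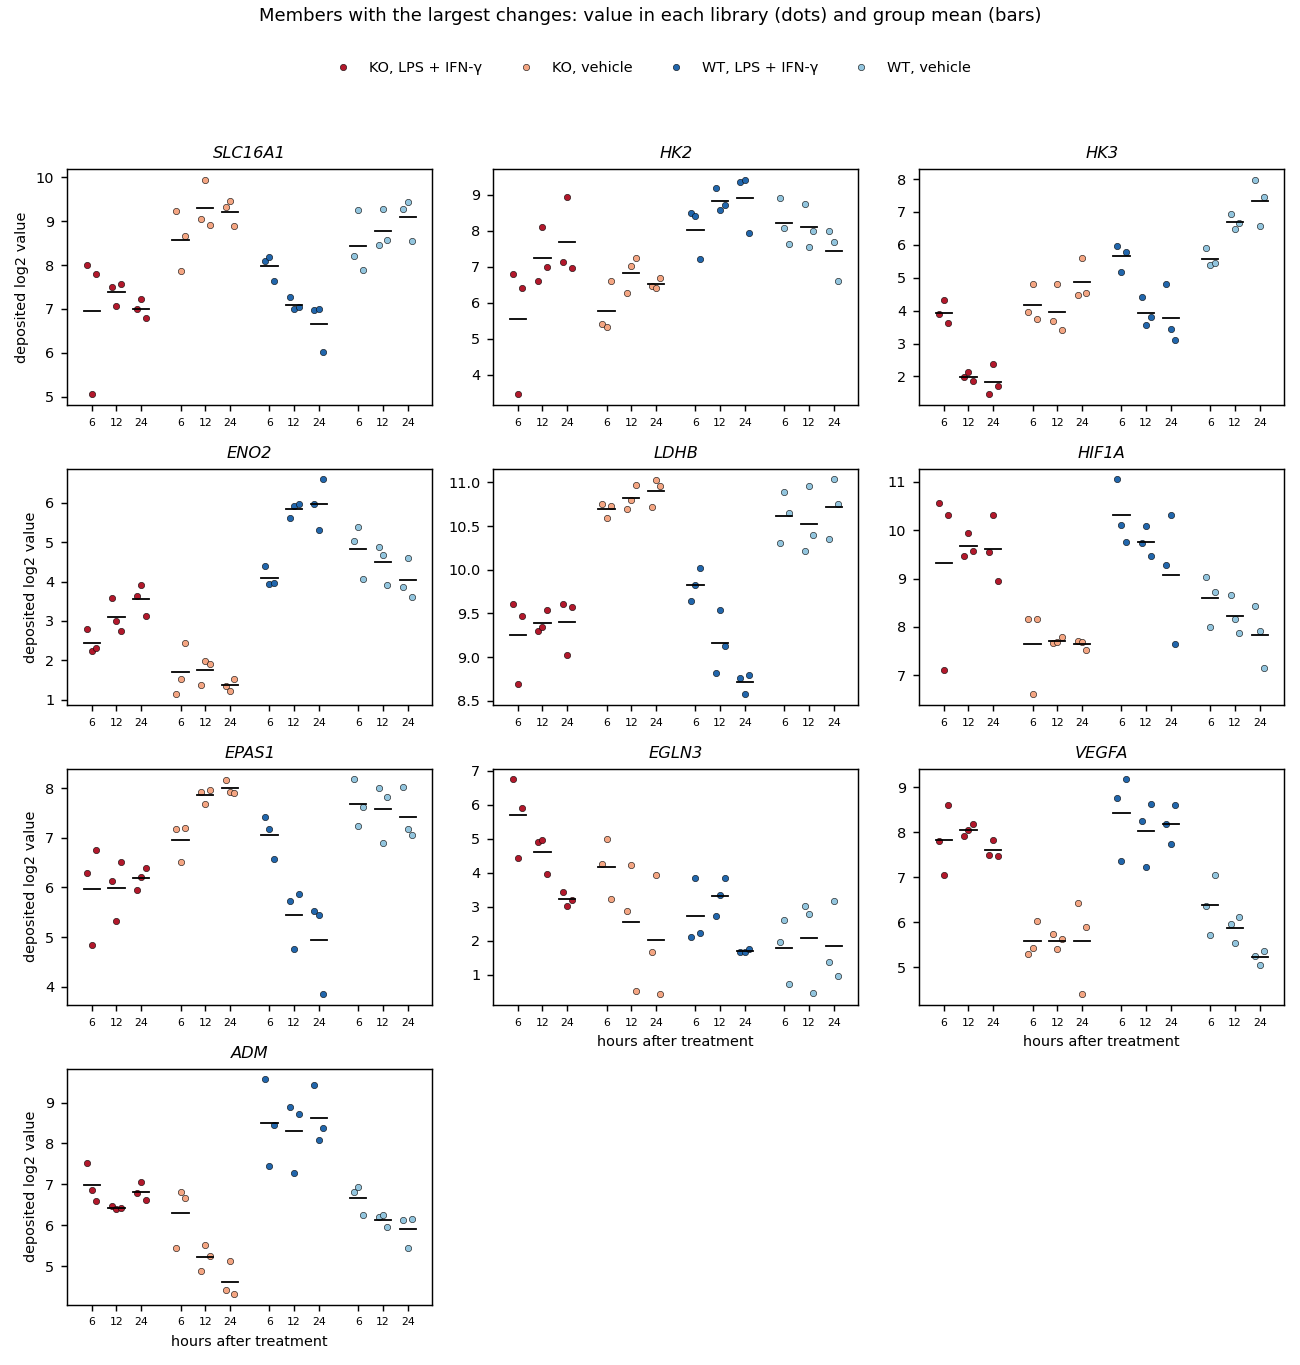
Deposited log2 value in each library of 10 members, with the 3 times of each genotype and treatment side by side; dots are libraries and bars group means. All 18 stimulated VEGFA values, 7.04 to 9.17 over both genotypes, exceed the vehicle values of their own genotype, and within each treatment the ENO2 values of KO cells lie below those of WT cells.

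Without stimulation more members were called lower than higher in KO cells, and many were not called. On the mean of 3 times 16 of 37 members (43.2%) were called lower in vehicle KO than in vehicle WT cells, where 12% of all genes tested were lower, and 2 members were called higher, where 11.4% of all genes were. The median of the 37 changes was -0.38, against -0.03 for all genes. Of the 18 glycolytic enzymes 9 were called lower and 0 higher, and of the 9 other hypoxia targets 6 were lower and 1 higher; no transporter was called in this fit. The fit with the replicate block called 27 members, adding SLC2A1, PFKL, PFKP and NDRG1 as higher and SLC16A3, GPI, PGK1, PKM and LDHA as lower. The fit of only the libraries compared added SLC2A1 and PFKL as higher and PGK1 as lower. SLC2A1 (0.75 ± 0.29) was called by both of these fits (adjusted p = 0.00319 with the block and 0.0472 with only the libraries compared). ENO2 differed most (-2.84 ± 0.23, adjusted p = 2.34e-10), at 1.15 to 2.44 (median 1.54) in vehicle KO and 3.62 to 5.37 (median 4.60) in vehicle WT libraries, with no overlap. All 3 hexokinases were lower, with changes of -2.20 ± 0.25 for HK3, -1.53 ± 0.37 for HK2 and -1.25 ± 0.19 for HK1. GAPDH (-0.80 ± 0.13), PGAM1 (-0.70 ± 0.14), TPI1 (-0.64 ± 0.12), ALDOC (-0.97 ± 0.29) and PFKM (-1.14 ± 0.15) fell with them, as did PFKFB4 (-0.91 ± 0.28). P4HA1, the catalytic subunit of collagen prolyl 4-hydroxylase, spanned 5.89 to 6.86 (median 6.32) in vehicle KO and 7.14 to 7.89 (median 7.54) in vehicle WT libraries and did not overlap (-1.13 ± 0.14, adjusted p = 7.96e-07). BNIP3 (-1.01 ± 0.16), ANKRD37 (-0.88 ± 0.20), ADM (-0.86 ± 0.26), BNIP3L (-0.57 ± 0.18) and P4HA2 (-0.51 ± 0.15) were also lower. CA12, a membrane carbonic anhydrase, was higher (1.94 ± 0.36, adjusted p = 0.000166), as was EGLN1 (0.51 ± 0.18, adjusted p = 0.0364). HIF1A (-0.55 ± 0.36, adjusted p = 0.308) and EPAS1 (0.05 ± 0.26, adjusted p = 0.926) were not called.

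Markers of macrophages moved in the same comparison: 8 of 12 were called lower and 1 higher in vehicle KO cells, and their summed level ran from 12.55 to 13.40 in vehicle KO against 13.79 to 15.23 in vehicle WT libraries. Of 12 markers of other cell types 8 matched, their summed level ran from 4.92 to 5.78 in vehicle KO against 5.80 to 7.23 in vehicle WT libraries, and CD3D, CDH5 and HBA1 were listed at 0 in some libraries. Of these, 7 could be tested, and 5 were called lower and 0 higher. The part of these markers in the result was not tested. BNIP3L lost its call without vehicle WT 12 h replicate 1 or 24 h replicate 1 (log2 changes of -0.49), and EGLN1 lost its call without vehicle KO 6 h replicate 1 or 3 or 12 h replicate 1 or 3 or 24 h replicate 1 or 2 or vehicle WT 6 h replicate 3 or 12 h replicate 2 or 3 or 24 h replicate 1 or 3 (log2 changes of 0.43 to 0.52). The count was 16 to 20 over all libraries left out in turn. SLC2A1 was called without vehicle KO 24 h replicate 3 or vehicle WT 12 h replicate 2 or 24 h replicate 2 (log2 changes of 0.83 to 0.92) and without the 2 libraries that stood apart, GPI without vehicle KO 6 h replicate 2 or 12 h replicate 2 (log2 changes of -0.43 to -0.42), and PGK1 without vehicle KO 12 h replicate 2 or vehicle WT 24 h replicate 3 (log2 changes of -0.43). PFKP was called without vehicle WT 12 h replicate 2 (log2 change of 0.67), PKM without vehicle WT 6 h replicate 3 (log2 change of -0.44), EGLN3 without vehicle KO 12 h replicate 3 (log2 change of 1.35) and NDRG1 without vehicle WT 6 h replicate 1 (log2 change of 0.77).

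With stimulation the genotype difference was split. Of 37 members 8 (21.6%) were called lower in stimulated KO than in stimulated WT cells and 5 (13.5%) higher, against 10.4% and 12.2% of all genes tested, and the median change was -0.08 against 0.02. HK2, HK3, GAPDH, ENO2, PFKFB4 and ADM were lower with either treatment. ENO2 spanned 2.25 to 3.91 (median 3.01) in stimulated KO and 3.93 to 6.59 (median 5.61) in stimulated WT libraries (-2.25 ± 0.23, adjusted p = 3.41e-08), 4.77-fold lower. Most of these KO values lay under log2(10), so this fold too depends on the offset. HK3 changed by -1.86 ± 0.25, HK2 by -1.76 ± 0.37, ADM by -1.73 ± 0.26, PFKFB4 by -0.95 ± 0.28 and GAPDH by -0.44 ± 0.13. PFKFB3 (-0.98 ± 0.23, adjusted p = 0.00223) and CA12 (-1.41 ± 0.36, adjusted p = 0.00524) were lower with stimulation. SLC2A1 spanned 8.59 to 10.40 (median 9.62) in stimulated KO and 6.03 to 9.18 (median 8.44) in stimulated WT libraries and was higher in KO (1.53 ± 0.29, adjusted p = 0.000289). PFKL (0.84 ± 0.14, adjusted p = 6.09e-05), EGLN3 (1.94 ± 0.50, adjusted p = 0.00544), LDHA (0.57 ± 0.17, adjusted p = 0.0187) and ENO1 (0.51 ± 0.18, adjusted p = 0.0382) were higher too.

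In this comparison 7 of 12 macrophage markers were called lower and 1 higher, with a summed level of 12.11 to 12.94 in stimulated KO against 13.26 to 14.13 in stimulated WT libraries. Of 7 tested markers of other cell types 3 were called lower and 1 higher, with a summed level of 4.82 to 6.82 in stimulated KO against 6.32 to 8.14 in stimulated WT libraries. The part of either list in the result was not tested. ENO1 lost its call without stimulated KO 6 h replicate 1 or 2 or 12 h replicate 1 or 2 or 24 h replicate 1 or 3 or stimulated WT 6 h replicate 3 or 12 h replicate 3 or 24 h replicate 3 (log2 changes of 0.41 to 0.51), and LDHA lost its call without stimulated KO 6 h replicate 1 or 24 h replicate 1 (log2 changes of 0.48). The fit of only these libraries did not call ENO1 (adjusted p = 0.0706), GAPDH (0.0569) or PFKFB4 (0.0834). TPI1 was called without stimulated KO 6 h replicate 2 or 24 h replicate 3 (log2 changes of -0.37 to -0.34), BNIP3 without stimulated WT 6 h replicate 2 or 24 h replicate 1 (log2 changes of -0.48 to -0.47) and P4HA1 without stimulated KO 6 h replicate 1 or stimulated WT 24 h replicate 3 (log2 changes of -0.41 to -0.40).

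**Figure D3:**
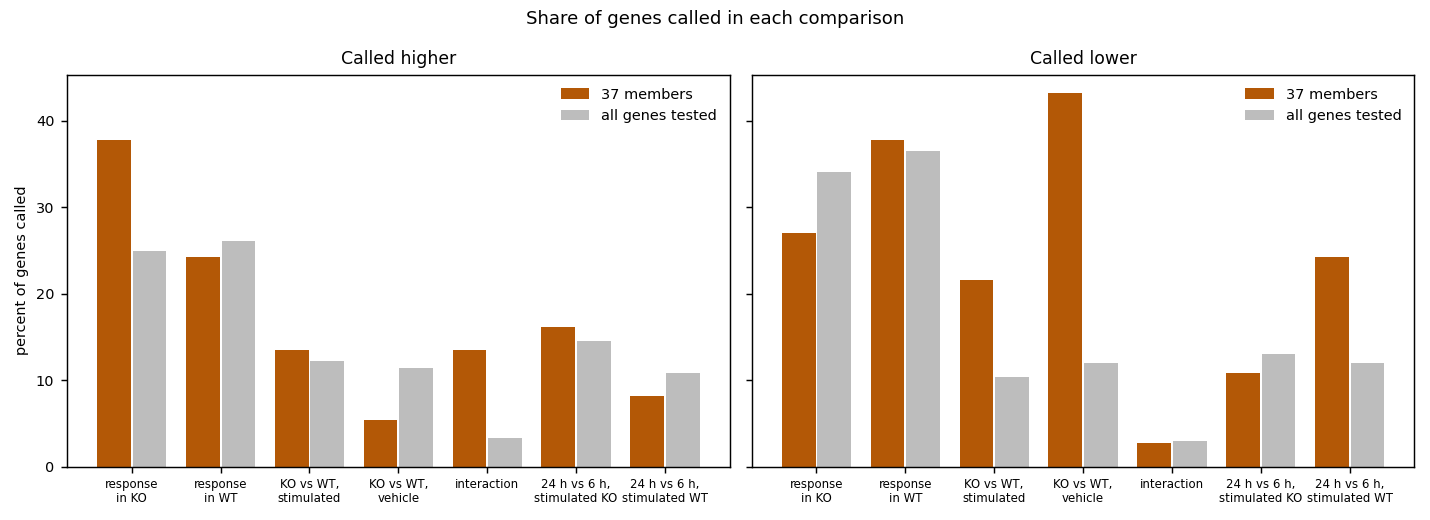
Percent of the 37 members and of all 21232 genes tested that were called higher (left) or lower (right) at an adjusted p below 0.05 in 7 comparisons. The members' share called lower is 43.2% against 12% of all genes for KO against WT with vehicle, while the shares differ less in the responses.

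The response itself differed between the genotypes for 6 members. Of 37 members 5 were called with a higher and 1 with a lower response in KO than in WT cells, against 3.32% and 2.92% of all genes tested, and the median interaction was 0.36 against 0.05 for all genes. All 6 calls held when each library was left out in turn. These interactions rest on the same libraries as the responses and genotype differences above and are not independent of them.

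HK1, the housekeeping hexokinase, rose with stimulation in KO cells. HK1 in stimulated KO cells was 9.36, 8.38 and 9.01 (6 h), 8.92, 8.81 and 8.75 (12 h), then 8.75, 8.41 and 8.40 (24 h). HK1 in vehicle-treated KO cells was 7.49, 7.92 and 7.53 (6 h), 7.34, 8.27 and 7.42 (12 h), then 7.85, 8.09 and 7.79 (24 h). All stimulated KO libraries exceeded all vehicle KO ones. HK1 in stimulated WT cells was 9.19, 8.89 and 8.47 (6 h), 9.24, 9.28 and 8.86 (12 h), then 8.84, 8.95 and 7.81 (24 h). HK1 in vehicle-treated WT cells was 9.40, 9.30 and 8.43 (6 h), 9.61, 8.90 and 8.77 (12 h), then 9.49, 8.87 and 8.21 (24 h). WT libraries of the 2 treatments overlapped at each time, and stimulated KO cells reached the WT range. The response was 1.01 ± 0.19, adjusted p = 4.65e-05 in KO and -0.16 ± 0.19, adjusted p = 0.484 in WT cells, with an interaction of 1.17 ± 0.27, adjusted p = 0.00766.

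PFKM, the muscle-type phosphofructokinase subunit, gave the same order. PFKM in stimulated KO cells was 4.60, 3.89 and 4.46 (6 h), 4.46, 4.30 and 4.47 (12 h), then 4.18, 4.05 and 4.08 (24 h). PFKM in vehicle-treated KO cells was 2.86, 2.47 and 2.61 (6 h), 3.41, 3.28 and 3.13 (12 h), then 3.55, 2.98 and 3.25 (24 h). No vehicle KO value reached the lowest stimulated one, and most vehicle values were under log2(10). PFKM in stimulated WT cells was 3.96, 4.22 and 4.52 (6 h), 4.13, 5.02 and 4.90 (12 h), then 4.15, 4.58 and 4.18 (24 h). PFKM in vehicle-treated WT cells was 4.34, 4.25 and 4.24 (6 h), 4.21, 4.26 and 4.36 (12 h), then 4.20, 4.00 and 3.95 (24 h). In WT cells the treatments overlapped at each time. The response was 1.22 ± 0.15, adjusted p = 5.06e-08 in KO and 0.21 ± 0.15, adjusted p = 0.231 in WT cells, with an interaction of 1.01 ± 0.21, adjusted p = 0.00299.

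LDHA, the lactate dehydrogenase subunit that favours lactate formation, was not called in KO cells and fell in WT cells. LDHA in stimulated KO cells was 10.96, 10.08 and 10.20 (6 h), 11.32, 11.40 and 10.76 (12 h), then 10.81, 9.63 and 10.44 (24 h). LDHA in vehicle-treated KO cells was 10.62, 10.46 and 10.61 (6 h), 10.45, 11.23 and 10.51 (12 h), then 10.62, 11.00 and 10.39 (24 h). The KO libraries of the 2 treatments overlapped at each time. LDHA in stimulated WT cells was 10.43, 10.40 and 9.76 (6 h), 10.75, 11.04 and 10.53 (12 h), then 9.40, 9.21 and 8.98 (24 h). LDHA in vehicle-treated WT cells was 11.28, 11.46 and 10.88 (6 h), 11.37, 11.23 and 10.56 (12 h), then 10.87, 11.35 and 10.42 (24 h). Stimulated WT libraries were below vehicle ones at 6 and 24 h and overlapped them at 12 h. The response was -0.03 ± 0.17, adjusted p = 0.894 in KO and -0.99 ± 0.17, adjusted p = 1.66e-05 in WT cells, with an interaction of 0.96 ± 0.25, adjusted p = 0.0165.

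CA12 moved in opposite directions. CA12 in stimulated KO cells was 2.45, 1.13 and 2.39 (6 h), 1.43, 3.20 and 1.13 (12 h), then 1.10, 3.29 and 1.24 (24 h). CA12 in vehicle-treated KO cells was 4.56, 4.46 and 5.06 (6 h), 4.02, 3.61 and 5.22 (12 h), then 3.09, 2.20 and 3.32 (24 h). KO libraries fell without overlap at 6 and 12 h and overlapped at 24 h. CA12 in stimulated WT cells was 2.76, 2.69 and 2.53 (6 h), 3.27, 3.58 and 2.62 (12 h), then 5.10, 4.63 and 2.88 (24 h). CA12 in vehicle-treated WT cells was 2.67, 3.66 and 2.50 (6 h), 2.06, 2.56 and 1.20 (12 h), then 1.35, 1.50 and 0.55 (24 h). Stimulated WT libraries were above vehicle ones at 12 and 24 h, and at 6 h they overlapped. The response was -2.02 ± 0.36, adjusted p = 2.13e-05 in KO and 1.34 ± 0.36, adjusted p = 0.00208 in WT cells, with an interaction of -3.35 ± 0.51, adjusted p = 0.000139. Many of these values lay under log2(10).

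ANKRD37, an ankyrin repeat protein gene known as a HIF target, rose in both genotypes and more in KO cells. ANKRD37 in stimulated KO cells was 5.33, 6.34 and 5.23 (6 h), 5.60, 5.70 and 5.12 (12 h), then 5.34, 5.24 and 5.51 (24 h). ANKRD37 in vehicle-treated KO cells was 3.43, 4.61 and 3.59 (6 h), 3.44, 3.61 and 3.22 (12 h), then 2.59, 3.92 and 3.23 (24 h). All stimulated KO libraries lay above all vehicle KO ones. ANKRD37 in stimulated WT cells was 5.33, 5.52 and 5.95 (6 h), 4.66, 5.59 and 5.52 (12 h), then 4.54, 5.28 and 4.86 (24 h). ANKRD37 in vehicle-treated WT cells was 4.65, 4.84 and 4.47 (6 h), 4.63, 4.53 and 4.10 (12 h), then 3.81, 4.33 and 4.22 (24 h). WT libraries were apart at each single time with a smaller gap. The response was 1.97 ± 0.20, adjusted p = 2.02e-09 in KO and 0.85 ± 0.20, adjusted p = 0.000624 in WT cells, with an interaction of 1.12 ± 0.29, adjusted p = 0.016.

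P4HA1 rose in KO cells. P4HA1 in stimulated KO cells was 7.06, 6.13 and 6.65 (6 h), 7.53, 7.85 and 7.70 (12 h), then 7.55, 7.29 and 7.54 (24 h). P4HA1 in vehicle-treated KO cells was 6.00, 6.32 and 5.89 (6 h), 6.28, 6.85 and 6.61 (12 h), then 6.28, 6.86 and 6.59 (24 h). KO libraries were apart at 12 and 24 h and overlapped at 6 h. P4HA1 in stimulated WT cells was 7.33, 7.46 and 7.06 (6 h), 7.74, 8.37 and 7.96 (12 h), then 7.34, 7.97 and 7.04 (24 h). P4HA1 in vehicle-treated WT cells was 7.54, 7.52 and 7.18 (6 h), 7.89, 7.66 and 7.49 (12 h), then 7.67, 7.74 and 7.14 (24 h). The WT libraries overlapped at each time. The response was 0.85 ± 0.14, adjusted p = 9.91e-06 in KO and 0.05 ± 0.14, adjusted p = 0.781 in WT cells, with an interaction of 0.80 ± 0.20, adjusted p = 0.0152.

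**Figure D4:**
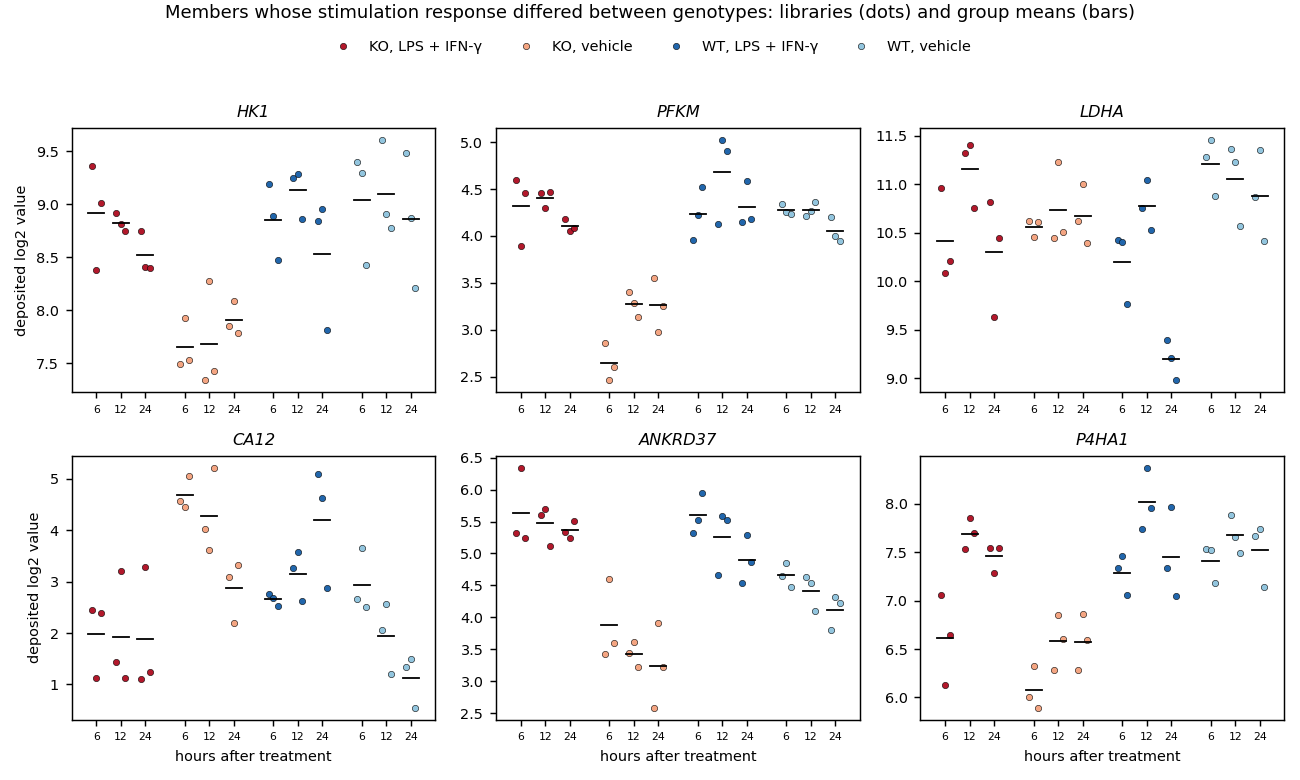
Deposited log2 value in each library of the 6 members whose response differed between genotypes; dots are libraries, bars group means, and the 3 times of each genotype and treatment stand side by side. For HK1, PFKM, ANKRD37 and P4HA1 the vehicle KO group means are the lowest of the 4 kinds of group at each time; CA12 is lower with stimulation in KO cells, and in WT cells it is higher at 12 and 24 h.

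PFKL and PGK1 had interactions of 0.50 ± 0.20 and 0.57 ± 0.22 and were called without stimulated KO replicate 2 at 24 h (0.59 and 0.67) and with the replicate block (adjusted p = 0.0424 and 0.0476). The block also called ENO1, PGAM1 and PKM, which brought its count to 11. BNIP3 (0.64 ± 0.23) was called without vehicle KO replicate 2 at 6 h (0.74) or without the 2 libraries that stood apart (0.76). PFKFB3 (-0.85 ± 0.32) was called without those 2 libraries (-0.71).

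The responses of single times had larger errors. In KO cells 7 members were called higher and 6 lower at 6 h (16.2% and 22.5% of all genes), 10 and 6 at 12 h (15.5% and 19.5%) and 10 and 8 at 24 h (17.3% and 21.6%). In WT cells the counts were 5 and 6 at 6 h (15.1% and 20.9% of all genes), 6 and 7 at 12 h (16.8% and 21.7%) and 6 and 14 at 24 h (20.2% and 26.1%). VEGFA and ANKRD37 were called higher and LDHB lower at all 3 times in KO cells whichever library was left out. PFKFB3, VEGFA and ADM were called higher at all 3 times in WT cells in the same way. The WT count at 6 h was 7 without vehicle WT replicate 2, and the KO count at 6 h was 7 in the fit of only the libraries compared.

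Between genotypes at single times, 0 members were called higher and 9 lower in vehicle KO cells at 6 h (4.28% and 3.91% of all genes), 1 and 6 at 12 h (2.9% and 2.34%) and 0 and 3 at 24 h (2.23% and 1.75%). With stimulation 1 was higher and 6 lower at 6 h (4.86% and 3.86% of all genes), 0 and 3 at 12 h (1.78% and 1.68%) and 4 and 4 at 24 h (3.41% and 2.46%). These counts rest on single libraries: vehicle 6 h fell to 4 without vehicle KO or vehicle WT replicate 1, and vehicle 12 h to 2 without either replicate 1 and to 4 without either replicate 3. Stimulated 6 h fell to 4 without KO replicate 2 and to 0 without WT replicate 1, and stimulated 12 h to 1 without WT replicate 1. Stimulated 24 h fell to 2 without KO replicate 1, to 4 without KO replicate 3 or WT replicate 1 and to 5 without WT replicate 3. In the replicate-block fit the counts were 6 for vehicle at 24 h, 6 for stimulated cells at 12 h and 13 for stimulated cells at 24 h. ENO2 was lower in vehicle KO cells at each of the 3 times whichever library was left out, and in stimulated KO cells at 12 and 24 h; the fit of only the libraries compared did not call it in stimulated cells at 24 h (adjusted p = 0.145).

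Between 24 h and 6 h, 6 members were called higher and 4 lower in stimulated KO cells, against 14.5% and 13% of all genes, and 3 higher and 9 lower in stimulated WT cells, against 10.8% and 12%. SLC16A3 rose in both, by 1.51 ± 0.28, adjusted p = 0.000251 in KO and by 1.91 ± 0.28, adjusted p = 1.69e-05 in WT cells, and HK3 fell in both, with changes of -2.10 ± 0.44, adjusted p = 0.000765 and -1.86 ± 0.44, adjusted p = 0.00256. In WT cells EPAS1 (-2.11 ± 0.44), ENO2 (1.86 ± 0.40), GPI (-1.40 ± 0.25), LDHB (-1.12 ± 0.23) and GAPDH (-1.07 ± 0.23) also held their calls whichever library was left out. The fit of only the libraries compared did not call EPAS1 (adjusted p = 0.0569), GAPDH (0.068) or HK3 (0.0838) in WT cells. The KO values of the same members were 0.22 ± 0.44, 1.11 ± 0.40, -0.20 ± 0.25, 0.15 ± 0.23 and -0.42 ± 0.23; the difference between these genotype values was not tested. In KO cells SLC16A3 and HK3 were the 2 calls that held whichever library was left out. Those of HK2 (2.12 ± 0.64) and EGLN3 (-2.48 ± 0.86) did not: HK2 lost its call without stimulated KO 6 h replicate 2 or 24 h replicate 2 (log2 changes of 1.08 to 1.49), and EGLN3 without stimulated KO 6 h replicate 1 or 3 or 24 h replicate 1, 2 or 3 (log2 changes of -2.59 to -1.95). The KO count fell to 6 without stimulated KO 6 h replicate 2 and to 5 without its replicate 3 or without 24 h replicate 2. With vehicle, limma called 0 members in either genotype at an adjusted p below 0.05, while 6 in KO and 4 in WT cells had an unadjusted p below 0.05; of all genes 0.226% were called higher in vehicle KO and 0.00942% in vehicle WT cells, and 0.608% and 0.0801% lower. ADM in vehicle KO cells was called without replicate 1 at 6 h (-2.12) and with the replicate block (adjusted p = 0.0386).

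Related gene lists were chosen with earlier results of these data known. The counts of all these lists stand beside the shares of all genes tested. Those were 24.9% higher and 34.1% lower in the KO response and 26.1% and 36.5% in the WT response. For KO against WT they were 11.4% and 12% with vehicle and 12.2% and 10.4% with stimulation. Whether a list differs from these shares was not tested. Of 33 other glycolytic and glucose-handling genes tested, 11 were called higher and 16 lower in the KO response and 9 and 19 in the WT response, with medians of -0.26 and -0.57. SLC2A6 (GLUT6), a hexose transporter of lysosomes, rose by 4.40 ± 0.20, adjusted p = 4e-17 in KO and by 3.36 ± 0.20, adjusted p = 2.47e-14 in WT cells. FBP1, the gluconeogenic bisphosphatase, fell, with changes of -3.65 ± 0.29, adjusted p = 7.12e-12 and -3.18 ± 0.29, adjusted p = 1.43e-10, and LDHD, which oxidizes D-lactate, at -2.58 ± 0.21 and -1.84 ± 0.21. All stimulated LDHD values and the stimulated FBP1 medians lay under log2(10), so the sizes of these falls depend on the offset. Of these 33 genes 4 were higher and 4 lower in vehicle KO than in vehicle WT cells, and 5 higher and 1 lower with stimulation. SLC2A10 was higher in vehicle KO cells (2.53 ± 0.30, adjusted p = 2.27e-07). FBP2, counted among the genes higher there (2.88 ± 0.40), passed the filter only through KO libraries. FBP2 read 1.428 to 4.116 in vehicle KO and 0.00 to 1.016 in vehicle WT libraries. Its stimulated WT values reached 1.627 at most. The size of the FBP2 change depends on the offset behind the logarithm, and its call is no separate support for a genotype difference.

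Of 37 other hypoxia response genes 15 were higher and 8 lower in the KO response and 15 and 9 in the WT response, with medians of 0.27 and 0.14. EDN1, the vasoconstrictor endothelin-1, rose by 4.95 ± 0.40 in KO and by 4.03 ± 0.40 in WT cells, and BHLHE40, a transcriptional repressor, by 3.91 ± 0.23 and 2.47 ± 0.23. ANGPTL4, an inhibitor of lipoprotein lipase, rose by 1.28 ± 0.38 in KO and by 3.80 ± 0.38 in WT cells, with an interaction of -2.52 ± 0.54, adjusted p = 0.00421. Its vehicle libraries read 0.496 to 4.223 (median 2.772) in KO and 0.347 to 1.295 (median 0.599) in WT cells. Its stimulated medians were 3.093 in KO and 4.419 in WT cells. All vehicle WT values lay under the filter's floor, so the sizes of the WT rise and of the interaction depend on the offset. The interaction also reflects the higher vehicle KO level, and is not only a weaker rise in KO cells. In vehicle cells 6 of the 37 were higher and 8 lower in KO, and in stimulated cells 3 and 4. Of 14 HIF regulators 4 were higher and 2 lower in the KO response and 1 and 1 in the WT response; ARNT, the common HIF partner, fell in KO cells (-0.57 ± 0.15, adjusted p = 0.00192). In vehicle cells 2 of the 14 were higher and 1 lower in KO, the last being CUL2, a scaffold of the ubiquitin ligase that removes HIF alpha (-1.08 ± 0.21, adjusted p = 0.000252), and in stimulated cells 0 and 1.

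Of 12 genes that control pyruvate entry to mitochondria, 1 was higher and 7 lower in the KO response and 1 and 8 in the WT response. PDK4, a kinase that inhibits pyruvate dehydrogenase, fell, with changes of -4.97 ± 0.58, adjusted p = 1.99e-08 in KO and -2.95 ± 0.58, adjusted p = 6.41e-05 in WT cells, and PDK2 fell, with changes of -2.53 ± 0.22 and -2.39 ± 0.22. Between genotypes 2 were higher and 2 lower with vehicle and 1 and 0 with stimulation. Of 9 pentose phosphate genes 1 was higher and 4 lower in each response. TKT and PGD, transketolase and 6-phosphogluconate dehydrogenase, were lower in vehicle KO cells (-1.10 ± 0.16, adjusted p = 7.76e-06, and -1.14 ± 0.17, adjusted p = 8.1e-06), where 2 of 9 were higher and 4 lower; with stimulation 2 were higher and 3 lower. Of 18 glycogen genes 0 were higher and 13 lower in the KO response and 0 and 8 in the WT response. Of all genes 34.1% were lower in the KO and 36.5% in the WT response. PYGL, a glycogen phosphorylase, fell, with changes of -2.93 ± 0.15, adjusted p = 8.11e-16 and -2.13 ± 0.15, adjusted p = 1.3e-12. In vehicle cells 3 of the 18 were higher and 0 lower in KO, and in stimulated cells 3 and 2.

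For 12 members the table also holds rows for a pseudogene, a near-identical copy or an antisense gene, 43 in all. These members are SLC2A3, SLC16A1, HK2, ALDOA, TPI1, GAPDH, PGAM1, ENO1, LDHA, LDHB, HIF1A and BNIP3. How reads matching both were assigned is not given, so values of these 12 members are uncertain wherever they are given above. For 7 of them, HK2, TPI1, PGAM1, ENO1, LDHA, HIF1A and BNIP3, a copy or antisense row had a median value at or above the member's own. TPI1P1 had a median of 12.13 against 8.37 for TPI1, and HIF1A-AS2 12.89 against 8.69 for HIF1A. What share of a member's reads was placed in such rows is not known. The HK2 copy HK2P1 changed by -1.44 in vehicle KO against vehicle WT cells, and HK2 by -1.53. The LDHA copy LDHAP4 read -0.06 in the KO response and -0.86 in the WT response, where LDHA read -0.03 and -0.99. ENO1P1 differed from its gene: it was higher in the KO response by 0.63 (adjusted p = 0.00551), where ENO1 read 0.06. SLC16A1-AS1 rose by 0.76 in KO cells (adjusted p = 0.00234) while SLC16A1 fell. Copies of TPI1 split in vehicle KO against vehicle WT cells, where TPI1 read -0.64. TPI1P2 was higher by 0.65 (adjusted p = 0.00225), while TPI1P1 changed by -0.66 and TPI1P3 by -1.28. Neither ALDOAP2 (-0.09 in KO and -0.32 in WT cells) nor ALDOAP1 (0.17 and -0.07) was called in a response, where ALDOA fell in both.

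**Figure D5:**
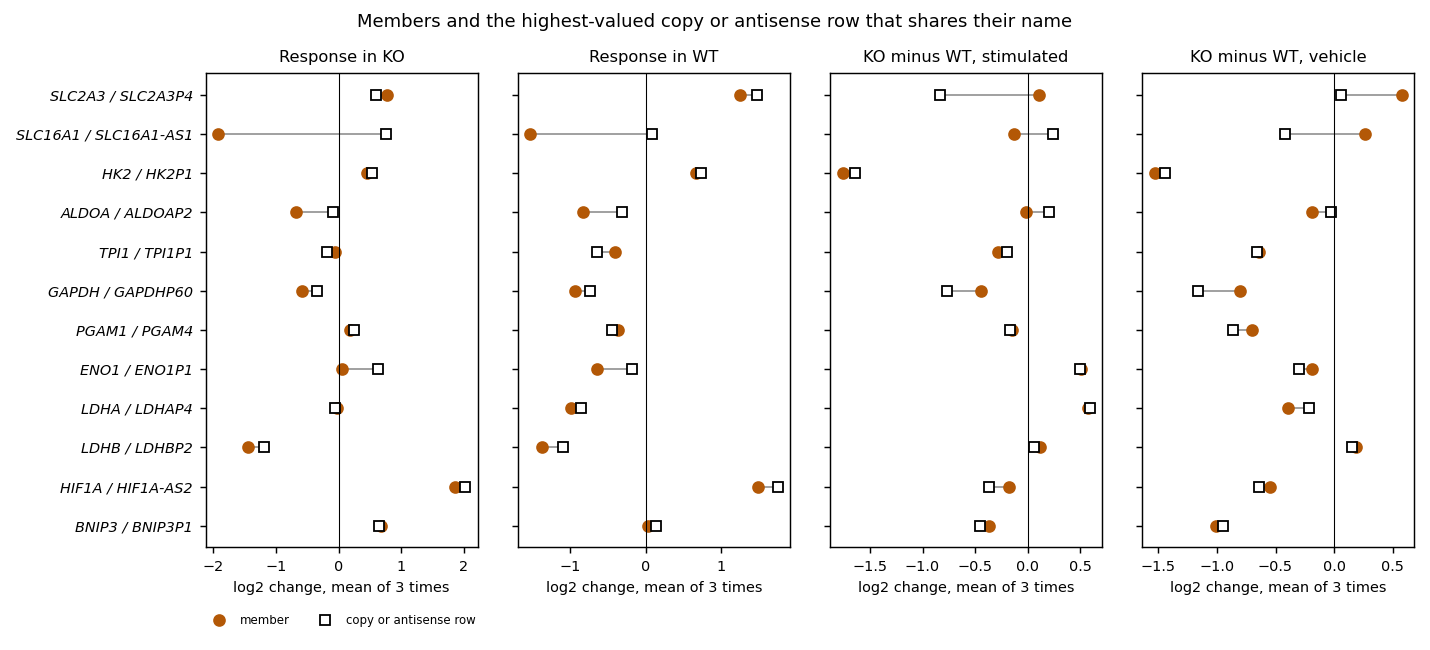
Log2 change of 12 members (filled circles) and of the copy or antisense row of each with the highest deposited value (open squares), on the mean of 3 times, for both responses and both genotype comparisons. The pairs lie close together for HK2, BNIP3 and LDHA, and apart for SLC16A1 and its antisense row.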

How the data were processed

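RNA-seq was measured in 36 libraries. The authors deposited 1 table of log2 expression values for 21599 Entrez rows, used here as deposited. Per the submitters' processing notes, cutadapt 1.9.1, GSNAP and genome build GRCh37.p5 were used; counting, strand, normalization and the offset before the logarithm are not given in the sources used here. Libraries, per the labels' protocols, were made from total RNA with ribosomal RNA depletion. No counts are part of the table, so the depth behind each value, and its precision, are not known.

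Genes at or above log2(10), 3.32, in at least 3 libraries were kept (21232; 367 removed). limma 3.58.1 in R 4.3.3 fitted 12 group means to all 36 libraries with a mean-variance trend (24 residual degrees of freedom), with Benjamini-Hochberg adjustment over all kept genes in each of 21 comparisons. On simulated data for the mean KO response, 57 of 100 genes shifted by log2 1 and 92 of 100 shifted by log2 2 were recovered, with 8 false calls among 21232 genes. For the KO response at 6 h, 14 and 61 of 100 were recovered. The simulated libraries had independent noise and few shifted genes. In the data like-numbered libraries correlated and many genes were called, so these rates do not carry over. Tables, promoter searches and figures used Python 3.11.15, numpy 2.4.6, pandas 2.3.3 and matplotlib 3.10.9. Gene lists and members were chosen with earlier results of these data known. Values in every library are given for the 10 members with the largest called change over the 2 mean responses and 2 mean genotype comparisons and for HIF1A, EPAS1, HK1 and LDHB where not among them; PFKM, LDHA and P4HA1 were added after their interactions were seen. Each list gave up to 4 genes called by the response and 2 by genotype to name.

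Like-numbered libraries were checked as pairs after group means were removed: in 12 of 16 comparisons of 2 groups at 1 time or genotype every pair correlated over 0.1, and over all comparisons pairs ran from -0.15 to 0.589. Printed values come from the fit without the block. The blocked value is added in places where it changed a count of calls or the call of a member, also outside those 12 comparisons. It is not added at every such place. Alternatives were no filter, median centring, a pseudocount of 5, a replicate block, a fit of only the libraries compared, each library left out, and, chosen after seeing the data, 2 libraries left out.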

Additional observations from a re-analysis of the deposited data

Results flagged for a closer look

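These 6 members were singled out because their stimulation response differed between KO and WT cells by a test of the difference itself, limma's interaction of genotype and stimulation on the mean of 3 times. The interaction was 1.17 for HK1, 1.01 for PFKM, 0.96 for LDHA, 1.12 for ANKRD37 and 0.80 for P4HA1, so their response was higher in KO cells, and -3.35 for CA12, whose response was lower in KO cells. No group had 4 or more libraries, so single libraries were not tested as outliers.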

How the results depend on the processing

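Median centring and no filter changed no call of a member in any of the 21 comparisons, and no change reversed its sign past the threshold under any alternative. The fit of only the libraries compared gave fewer calls in these comparisons: 7 members in the KO response at 6 h, 4, 3 and 1 between genotypes with vehicle at 6, 12 and 24 h, 0, 1 and 0 with stimulation, and 2 in stimulated KO and 4 in stimulated WT cells for 24 h against 6 h. In the others its count stayed within 1.5 times, with 21 members in place of 18 between genotypes with vehicle on the mean and 19 in place of 16 in the KO response at 12 h. The replicate block gave 6 members between genotypes with vehicle at 24 h, 6 with stimulation at 12 h, 13 with stimulation at 24 h, 11 for the interaction and 1 for 24 h against 6 h in vehicle KO cells. It changed no other count by more than 1.5 times. Like-numbered libraries did not all correlate over 0.1 in the KO response at 24 h, between genotypes at 6 h with either treatment, and for 24 h against 6 h in stimulated KO cells. Without the 2 libraries that stood apart, 6 members were called between genotypes with vehicle at 24 h, 5 with stimulation at 12 h and 5 at 24 h. A pseudocount of 5 gave 1 member for 24 h against 6 h in vehicle WT cells. The causes were not tested. With each library left out in turn, the number of members called was 23 to 26 in the KO and 21 to 23 in the WT response on the mean of 3 times. At 6, 12 and 24 h it was 10 to 16, 12 to 17 and 14 to 17 in KO and 7 to 10, 9 to 13 and 17 to 21 in WT cells. Between genotypes it was 16 to 20 with vehicle and 11 to 14 with stimulation on the mean, 4 to 9, 2 to 8 and 2 to 4 with vehicle by time, and 0 to 6, 1 to 3 and 2 to 10 with stimulation by time. It was 6 to 8 for the interaction, and for 24 h against 6 h 5 to 9 in stimulated KO, 8 to 12 in stimulated WT, 0 to 1 in vehicle KO and 0 in vehicle WT cells. Sequencing depth is unknown, so how far low values such as those of ENO2, CA12 and EGLN3 limit these comparisons was not tested.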
